A study of Caenorhabditis elegans with 6 samples.

Results

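Whole-worm RNA of Caenorhabditis elegans was sequenced in 6 libraries, and these differed in the transcript of cpg-1, an eggshell gene made in oocytes, within each treatment. Of the 6 libraries, 2 had a cpg-1 level of at least 200 FPKM (fragments scaled by gene length and by library size) and are called cpg-1-high here: 1 from worms given D-mannose (mannose 1) and 1 from worms given water (water 3). The other 4 are called cpg-1-low: 2 from worms given D-mannose (mannose 2 and mannose 3) and 2 from worms given water (water 1 and water 2). All 6 libraries share the N2 strain, which is the standard wild type, the OP50 strain of Escherichia coli as food, nematode growth medium plates, an age of 6 days and total RNA from whole animals. The amount of mannose, the number of worms pooled and whether replicates came from separate cultures are not stated in the labels. The classes were chosen by a measured value, so every difference below is a description: no test was made and no p-value is given. Only that gene's level chose the members. The lowest value inside the rule was 469 FPKM in mannose 1 and the highest outside it was 58.2 FPKM in mannose 2.

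The adult hermaphrodite gonad runs from a distal pool of germline stem cells, held by Notch signalling, through meiotic prophase to growing oocytes near the uterus. Growing oocytes take up yolk made by the intestine and load messenger RNA and protein that the embryo uses before its own genome is transcribed. A large set of RNA-binding proteins keeps those maternal messages silent, in part inside germ granules, until the oocyte matures and is fertilized. In whole-worm RNA, fewer oocytes and less RNA per oocyte cannot be told apart.

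The 4 marker genes of oocytes were all several-fold higher in the cpg-1-high libraries. The gene cpg-1 itself (III:4489270-4494204, build WBcel235), for a chondroitin proteoglycan of the eggshell, had 469 FPKM in mannose 1 and 664 in water 3, against 58.2 in mannose 2, 50.7 in mannose 3, 54.1 in water 1 and 53.4 in water 2. The class means were 566 ± 138 FPKM (SD, n = 2) in cpg-1-high and 54.1 ± 3.09 FPKM (SD, n = 4) in cpg-1-low libraries, 10.5-fold apart, and this gap is what the rule used. The 4 low libraries were close to each other for this gene.

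The gene lin-41 (I:9334800-9342496), for a TRIM-NHL protein that holds oocytes back from premature maturation, had 59.9 FPKM in mannose 1 and 58.0 in water 3, against 7.02, 5.72, 5.61 and 5.56 in mannose 2, mannose 3, water 1 and water 2. Its class means differed 9.87-fold. The yolk receptor gene rme-2 (IV:5469961-5473174) had 286 and 394 FPKM in mannose 1 and water 3, against 66.7, 30.3, 38.2 and 49.1 in the same 4 low libraries, a 7.38-fold difference of means. For mex-5 (IV:13353716-13356104), which encodes a zinc-finger RNA-binding protein that sets up embryonic polarity, the values were 278 and 364 FPKM in mannose 1 and water 3, against 57.2, 33.7, 35.6 and 42.5, a 7.61-fold difference. No low library reached a high one for any of these genes, but mannose 2 was the highest of the 4 low libraries for each.

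**Figure D1:**
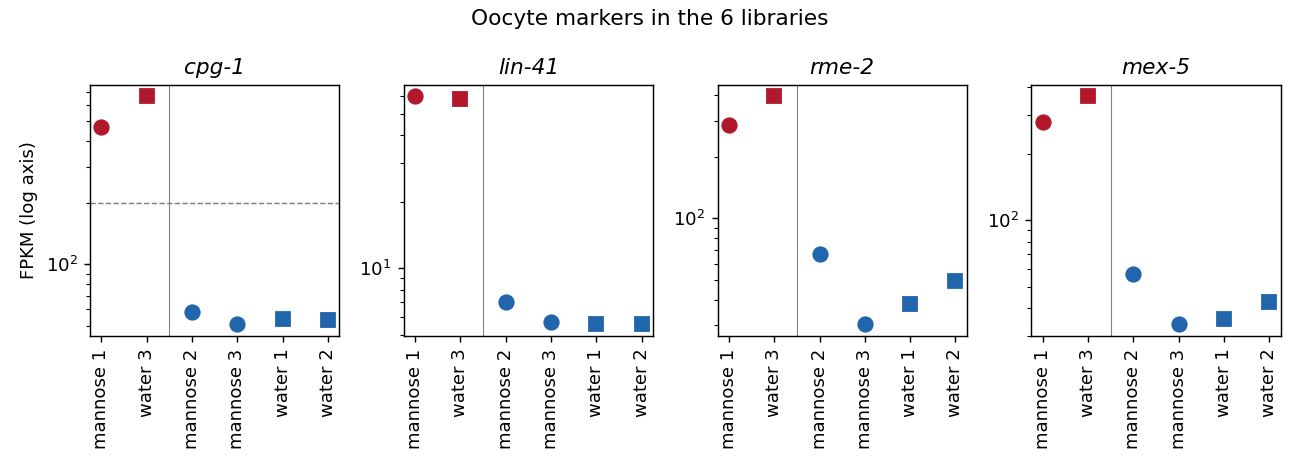
FPKM (log axis) of cpg-1, lin-41, rme-2 and mex-5 in each of the 6 libraries, cpg-1-high libraries left of the grey line, circles for mannose and squares for water. The dashed line is the 200 FPKM of the rule, and the cpg-1 points lie at 469 and 664 above it and from 50.7 to 58.2 below it.

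Beside cpg-1, which set the classes, the label of an oocyte-rich class rests on the other 3 markers, and it held only in part for genes of the oocyte at large. Other genes known from oocytes differed little: cpg-3, for another chondroitin proteoglycan of the eggshell, had 861 and 911 FPKM in mannose 1 and water 3, against 905, 815, 895 and 937 in mannose 2, mannose 3, water 1 and water 2. The germ plasm gene nos-2 (chosen after its values were seen), for a Nanos-family protein, had 160 and 169 FPKM against 145 to 154, so both high libraries lay above all low ones, with a difference of 0.14. For that reason the libraries are named here by cpg-1 and not by a number of oocytes.

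Differences below are on the log2(FPKM + 1) scale, with the treatment as a term in the fit, and are the mean of the difference within mannose (mannose 1 minus the mean of mannose 2 and 3) and that within water (water 3 minus the mean of water 1 and 2). They were computed for the 11237 genes with at least 1 FPKM in at least 3 of the 6 libraries. A gene was counted as higher or lower where the difference was at least 1, which is 2-fold, and both high libraries lay outside the range of all 4 low ones. By that rule 1191 genes (10.6%) were higher and 19 (0.169%) lower in cpg-1-high libraries; without the size limit, 3209 genes (28.6%) lay above and 2412 (21.5%) below all low libraries. These shares are the background against which counts of gene groups stand below. The median difference over all genes was 0.0095, with a 5th percentile of -0.45 and a 95th of 1.49, so the upper tail was the longer. The libraries held 39900000 to 46000000 read equivalents after rounding, with a value above 0 for 17819 to 18509 genes.

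The differences within mannose and within water were compared side by side. Of the 1191 higher genes, 1003 had a difference of at least 1 both within mannose and within water, with medians of 1.33 and 1.60; the rule that counts a gene as higher fixes a positive difference in both. Across all 11237 genes the difference within mannose and that within water, which share no library, had a Pearson correlation of 0.77 and a Spearman correlation of 0.75; genes are not independent replicates, and both high libraries were picked by the same gene. Mannose 1 and water 3 had a Spearman correlation of 0.981 over these genes, the 4 low libraries 0.977 to 0.987 among themselves, and a high with a low library 0.933 to 0.968.

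**Figure D2:**
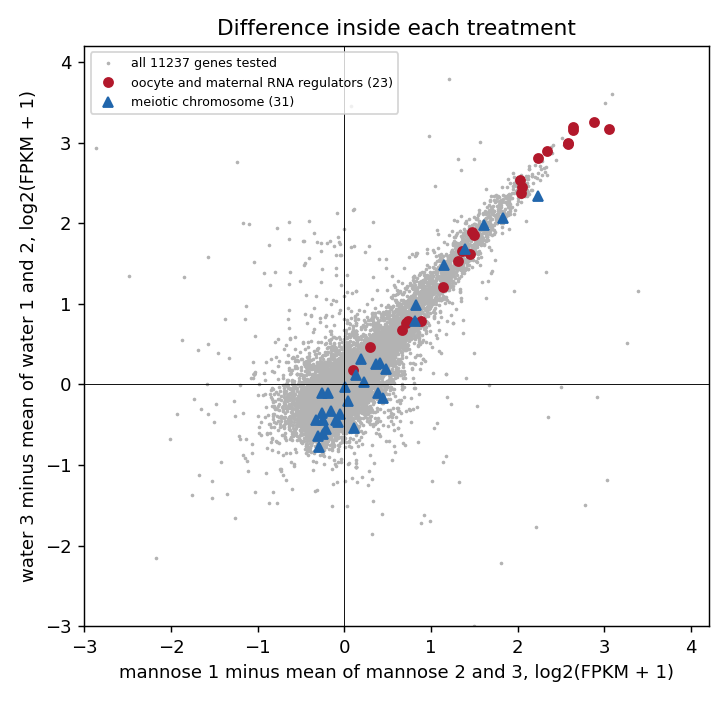
Difference of each gene within mannose (x axis, mannose 1 minus the mean of mannose 2 and 3) and within water (y axis, water 3 minus the mean of water 1 and 2), both log2(FPKM + 1); grey points are the 11237 genes compared, of which 18 lie outside the axes. The 23 oocyte and maternal RNA regulators (red circles) run up the diagonal and all lie above 0 on both axes, and most of the 31 meiotic chromosome genes (blue triangles) lie around 0.

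Among genes counted as higher with a mean of at least 5 FPKM, cpg-1, which set the classes, came first. After it came cbd-1 (IV:11372991-11377761), for a chitin-binding eggshell protein, with 328 and 483 FPKM in mannose 1 and water 3, against 44.6, 35.8, 42.8 and 41.1 in mannose 2, mannose 3, water 1 and water 2, a 9.87-fold difference of means. Next among genes not yet named was puf-7 (IV:5486685-5490322), of the Pumilio family of RNA-binding repressors, with 74.9 and 104.5 FPKM against 11.9, 7.28, 9.77 and 10.3. The DEAD-box RNA helicase gene cgh-1 (III:7495320-7497834), whose protein is a core part of germline RNA granules, had 814 and 1027 FPKM against 185, 99.4, 116 and 144, a 6.77-fold difference. The counting rule leaves out genes whose classes overlap, such as col-93, described below with the collagens. The other genes among the 12 largest were puf-6 (difference 2.79), of the same Pumilio family, Y57A10A.31 (2.78), pqn-20 (2.75), tpxl-1 (2.69), whose protein activates Aurora A kinase at the spindle, and egg-6 (2.66), for a leucine-rich repeat protein.

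Of 23 oocyte and maternal RNA regulators, 17 were counted as higher and 0 as lower, and the other 6 also had both high libraries above all low ones. Their median difference was 1.68, with 1.49 within mannose and 1.89 within water. The markers lin-41, rme-2 and mex-5 are among them. The summed level of the list was 6899 and 7558 FPKM in mannose 1 and water 3, against 3514, 2127, 2169 and 2634 in mannose 2, mannose 3, water 1 and water 2, and it took 1.09% and 1.15% of the reads against 0.37% to 0.59%.

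Within this list the size of the difference followed no single family. Among the Pumilio genes, puf-7, puf-6 and puf-3 had differences of 3.07, 2.79 and 2.25, puf-5 had 1.68, and puf-11 had 0.76 with 345 and 340 FPKM in mannose 1 and water 3 against 294, 145, 169 and 229. The close relatives mex-5 and mex-6 had 2.92 and 0.67. The genes oma-1 and oma-2, for redundant zinc-finger proteins of oocyte maturation, had 1.42 and 1.17. The most abundant member, spn-4, for an RNA-binding protein of the early embryo, had 752 and 672 FPKM in mannose 1 and water 3, against 531, 313, 344 and 438, a difference of 0.84 that is under the size limit. The puf-3, puf-5, puf-11, mex-6 and oma genes were chosen after their values were seen, to show members of the same families.

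Eggshell and egg activation genes were divided. Of 15, 7 were counted as higher and 0 as lower, with a median of 0.81 and a range of -0.23 to 3.34. The 7 were cpg-1, cbd-1, egg-6, egg-4, cpg-2, egg-5 and mbk-2. Of these, cpg-1 set the classes, so its place among the 7 and the 3.34 at the top of the range were fixed by the rule. The pseudophosphatase gene egg-4, whose product restrains the kinase MBK-2 until egg activation, had 117 and 132 FPKM in mannose 1 and water 3, against 56.7, 24.4, 30.02 and 36.8 in mannose 2, mannose 3, water 1 and water 2. Its near-identical partner egg-5 had a difference of 1.68, and reads of the pair may be divided between the copies; mbk-2 had 1.41.

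The 3 chondroitin proteoglycan genes of the list thus had 3 different patterns. The gene cpg-2 had 1488 and 1744 FPKM in mannose 1 and water 3, against 799, 283, 410 and 586, a difference of 1.74, less than the 3.34 of cpg-1 and more than the 0.00 of cpg-3. Genes of fertilization and of chitin synthesis differed less: egg-1 and egg-2, for a pair of LDL-receptor-repeat proteins on the oocyte surface, had differences of 0.53 and 0.05, the chitin synthase gene chs-1 had 0.67 with overlapping classes, and gna-2, for an enzyme that makes the sugar precursor of chitin, had -0.23. The members other than cpg-1, cbd-1, egg-6, egg-4 and cpg-3 were chosen after their values were seen.

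**Figure D3:**
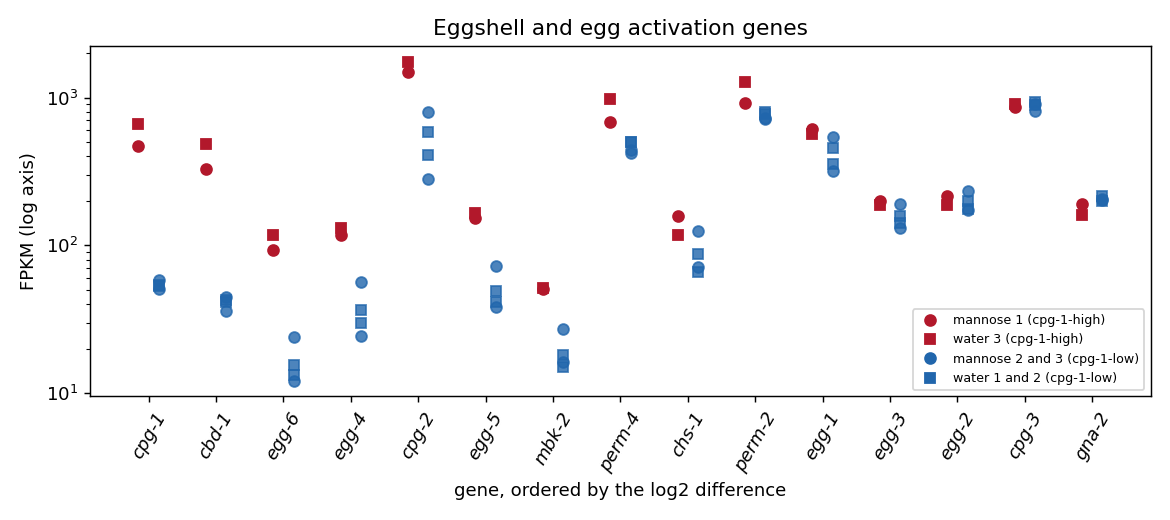
FPKM (log axis) of the 15 eggshell and egg activation genes, ordered by their difference between classes; red points are mannose 1 and water 3, blue points the 4 cpg-1-low libraries, circles mannose and squares water. The classes are far apart at the left (469 and 664 against 50.7 to 58.2 for cpg-1, which set them) and overlap for cpg-3 near the right end.

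Genes that control the germline stem cell pool and entry into meiosis were higher in part. Of 12, 6 were counted as higher and 0 as lower (median 0.96). The tumour suppressor gene gld-1, whose RNA-binding product promotes meiotic entry and represses maternal messages, had 368 and 513 FPKM in mannose 1 and water 3, against 109, 57.3, 69.2 and 85.3 in mannose 2, mannose 3, water 1 and water 2, a 5.49-fold difference of means; it overlaps another expressed gene on its strand, so its reads may be divided. The stem cell gene sygl-1, a target of Notch signalling, had a difference of 2.29 and overlaps 2 such genes, and gld-2, for a cytoplasmic poly(A) polymerase, and daz-1, for an RNA-binding protein needed in oogenesis, had 2.07 and 2.03. The Notch receptor gene glp-1 (chosen after its values were seen) had 65.0 and 36.8 FPKM against 37.8, 24.3, 18.9 and 23.3, so that water 3 lay below mannose 2 and the classes overlapped.

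Germ granule and germline Argonaute genes went with the oocyte regulators. Of 20, 13 were counted as higher and 0 as lower (median 1.31, 1.23 within mannose and 1.43 within water). The P granule scaffold gene pgl-3 had 102 and 142 FPKM in mannose 1 and water 3, against 29.04, 14.2, 19.1 and 23.9 in mannose 2, mannose 3, water 1 and water 2. The genes meg-1 and meg-3, for disordered proteins of embryonic P granules, had differences of 1.92 and 1.77, and the Argonaute genes wago-4 and wago-1 had 1.87 and 1.22. The small RNA amplification genes ego-1, an RNA-dependent RNA polymerase, drh-3 and ekl-1 (chosen after their values were seen) had -0.05, 0.01 and -0.08 and their values overlapped between the classes; drh-3 also overlaps another expressed gene.

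Genes of meiotic chromosomes did not move as a group. Of 31, 4 were counted as higher and 0 as lower, a share of 12.9% beside the 10.6% of all genes, and 15 had a difference above 0 and 16 below it (median -0.014). The 4 were xnd-1 (1.95), for a chromatin protein that affects crossover distribution, plk-2 (1.79), for a Polo-like kinase that acts in chromosome pairing, rec-8 (1.53), for the meiotic cohesin kleisin, and htp-3 (1.31), for a HORMA-domain axis protein, the last chosen after its values were seen. The axis gene htp-1, the most abundant of the list, had 134 and 151 FPKM in mannose 1 and water 3, against 158, 147, 167 and 158 in mannose 2, mannose 3, water 1 and water 2. Of the 6 syp genes of the synaptonemal complex, 3 lay above 0 and 3 below (median -0.041). The double-strand break gene dsb-2 was listed at 0 in mannose 2, with 18.5 and 6.95 FPKM in the high libraries and 16.03, 0.49 and 0.66 in the other low ones, and it overlaps another expressed gene.

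Genes of embryonic polarity, the cell cycle and DNA replication were mixed, with high and unmoved members in each list. Polarity and centrosome genes had 8 of 22 counted as higher (median 0.56). The cortical polarity gene par-3 had 29.5 and 32.7 FPKM in mannose 1 and water 3, against 5.73, 3.94, 3.96 and 3.32 in mannose 2, mannose 3, water 1 and water 2, a 7.34-fold difference of means; zyg-9, for a microtubule polymerase of the spindle, had a difference of 2.07 and the atypical protein kinase C gene pkc-3 and the RING-finger gene par-2 had 1.79 each, with par-2 overlapping 2 other genes. The 14-3-3 gene par-5, the most abundant, had 0.35.

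Of 29 cell cycle genes, 11 were counted as higher, and their median was 0.33 as deposited and -0.0048 with libraries scaled to total reads. The inner centromere protein gene icp-1 had a difference of 2.06, the centralspindlin gene cyk-4 had 1.94, the cyclin B gene cyb-1 had 206 and 236 FPKM in mannose 1 and water 3 against 86.2, 43.7, 53.3 and 65.2 in the low libraries (1.86), and the phosphatase gene cdc-25.2 had 1.82. A B-type cyclin paralog, cyb-2.2, the most abundant of the list, had 355 and 367 FPKM against 417, 381, 387 and 380. Cyclins of one type therefore stood on both sides.

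The same held for ribonucleotide reductase, whose large and small subunits together make deoxynucleotides. The large subunit gene rnr-1 had 126 and 157 FPKM in mannose 1 and water 3, against 27.7, 18.1, 20.1 and 24.0 in mannose 2, mannose 3, water 1 and water 2, a difference of 2.61. The small subunit gene rnr-2 had 590 and 566 FPKM against 673, 643, 684 and 645, a difference of -0.19. In the replication list 9 of 31 were counted as higher (median 0.34, and 0.012 with scaling to total reads). Of the 6 genes of the MCM helicase, which unwinds DNA at origins, all 6 lay above 0 and 4 were counted as higher, with mcm-7 at 2.40, mcm-4 at 2.05 and mcm-2 at 1.92.

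The lists of nuclear pore, chaperonin, proteasome, translation factor, endoplasmic reticulum chaperone and ribosomal protein genes held between 12.5% and 50.0% higher members, beside 10.6% of all genes. Of 24 nuclear pore genes, 12 were counted as higher (median 0.88), led by npp-9, for the RanBP2-type cytoplasmic nucleoporin, with 230 and 262 FPKM in mannose 1 and water 3, against 66.6, 36.2, 39.4 and 47.5 in mannose 2, mannose 3, water 1 and water 2. The genes npp-3, npp-8 and npp-7 followed with 2.22, 2.103 and 2.096, and npp-23, the most abundant, had -0.14; npp-8 overlaps another expressed gene. The cytosolic chaperonin, which folds actin and tubulin, had 4 of 8 subunit genes counted as higher (median 0.91): cct-8 at 2.08, cct-7 at 1.75, cct-2 at 1.503 and cct-3 at 1.12, but cct-5, which overlaps 2 expressed genes, at 0.17. Subunits of 1 complex thus had unequal differences in transcript level.

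The proteasome list divided in the same way. Of 32 genes, 9 were counted as higher (median 0.42, and 0.087 with scaling to total reads). In the regulatory particle, which recognizes substrates, 6 of 19 were counted as higher with a median of 0.64, and rpn-1 had 118 and 158 FPKM in mannose 1 and water 3, against 33.6, 19.3, 24.0 and 27.02 in the low libraries. In the catalytic core, 3 of 13 were counted as higher with a median of -0.013. There pbs-2 had 1.66 and pas-5, the most abundant, had -0.28 with 695 and 754 FPKM against 819, 882, 967 and 865. Genes of the regulatory particle had a median length of 1545 bases and those of the core 883, and the part of length was not tested.

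Of 80 ribosomal protein genes, 10 were counted as higher (12.5%, beside 10.6% of all genes) and 62 lay above 0, with a median of 0.40 as deposited and 0.068 with scaling to total reads. The leading members were rps-4 (1.21), rpl-4 (1.15) and rpl-5 (1.14), and rpl-10, the most abundant, had 0.13; rps-4 overlaps 2 other expressed genes and rpl-5 overlaps 1. Of 37 translation factor genes, 9 were counted as higher, and the median was 0.24 as deposited and -0.085 with scaling to total reads. The elongation factor gene eef-1A.1 had 5942 and 9033 FPKM in mannose 1 and water 3, against 2669, 2303, 2800 and 2977 in mannose 2, mannose 3, water 1 and water 2, and eef-2 had a difference of 1.54. The initiation factor gene eif-3.B had 1.70, ife-3, for an eIF4E cap-binding protein, had 1.64, and eif-2gamma had 1.58.

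Of 20 chaperones of the endoplasmic reticulum, 3 were counted as higher, the disulfide isomerase genes pdi-1 (1.45) and pdi-3 (1.13) and the GRP94 gene enpl-1 (1.06), while the calreticulin gene crt-1, the most abundant, had 0.73. In the hexosamine pathway, which supplies the sugar of chitin and of glycans, gfat-1 alone of 7 genes was counted as higher, and the list median was 0.35, or 0.030 with scaling to total reads. Its 2.53 compared with 0.73 for the paralog gfat-2, which had 576 and 537 FPKM in mannose 1 and water 3, against 443, 267, 289 and 364 in the low libraries, and with -0.42 for gna-1, a glucosamine-phosphate acetyltransferase gene. The fatty acid synthase gene fasn-1 was the only higher gene of 16 of fatty acid synthesis and desaturation (1.51), with 11.003 and 12.28 FPKM against 3.25 to 3.72.

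**Figure D4:**
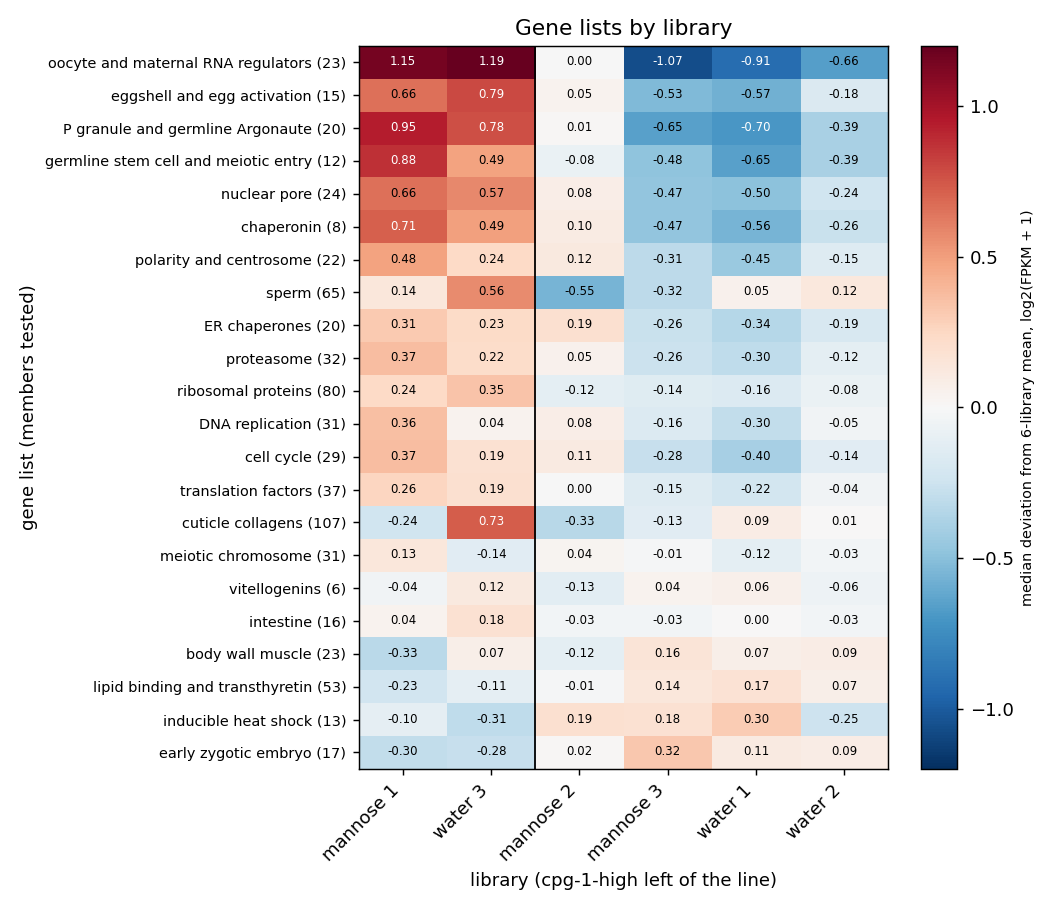
Median deviation of the members of 22 gene lists from each gene's mean over the 6 libraries, log2(FPKM + 1), by library; cpg-1-high libraries are left of the black line, and numbers in brackets are genes compared. The oocyte list lies at 1.15 and 1.19 in mannose 1 and water 3, against 0.00 in mannose 2 and -1.07 to -0.66 in the other low libraries, while meiotic chromosome genes lie within 0.14 of 0 in all 6.

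Transcripts of the embryo lay the other way or did not move. All 17 early zygotic genes that passed the filter, of 53 in the files, had a difference below 0 (median -0.43), and 0 reached the size limit. Of all 11237 genes, 5523 lay below 0. With the median of genes of like length taken off (described below), the early zygotic genes had a median of -0.32. The summed level of the list was 118 and 99.0 FPKM in mannose 1 and water 3, against 133, 170, 162 and 148 in mannose 2, mannose 3, water 1 and water 2. Most of that sum came from sdz-27 in each library, and the other members compared had at most 9.59 FPKM. The most abundant, sdz-27, a gene that depends on the maternal factor SKN-1, had 79.3 and 62.1 FPKM against 81.4, 108, 100.3 and 88.9, and vet-1, expressed very early in embryos, had 3.14 and 1.73 against 4.27, 7.22, 4.70 and 5.81. Both high libraries lay below all low ones for these 2 genes. Of 11 genes that specify embryonic tissues, 1 was counted as higher, die-1 (1.40), for a zinc-finger factor of epidermal morphogenesis (median of the list -0.088).

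Sperm transcripts differed less than oocyte transcripts. Of 65 sperm genes, 1 was counted as higher, msp-55, at 1.00; 56 lay above 0, and the median was 0.55. All 29 genes of the major sperm protein family, the cytoskeletal protein of the crawling sperm, lay above 0 (median 0.67), while 9 nspd genes, also of sperm, had a median of 0.011. The summed level of the list was 2805 and 3767 FPKM in mannose 1 and water 3, against 1724, 2016, 2718 and 2865 in mannose 2, mannose 3, water 1 and water 2, so the classes overlapped. Treatment moved with this list too: mannose minus water was -0.44 in cpg-1-high and -0.60 in cpg-1-low libraries. These gene families hold near-identical copies, which makes the value of any 1 copy uncertain.

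Lists of somatic cell types held few or no counted genes, though some leaned to 1 side. The somatic gonad list of 10 sheath and spermatheca genes had a median of 0.019 as deposited and -0.28 with scaling to total reads, with 1 counted as higher, the filamin gene fln-1 (1.17); its summed level was 231 and 230.5 FPKM in the high libraries, against 227 to 241 in the low ones. Intestinal genes had 0 of 16 counted in either direction and a median of 0.17, which was -0.15 with scaling to total reads. The vitellogenins, the yolk proteins that RME-2 takes up, had 0 of 6 counted and a median of 0.097, which was -0.24 with that scaling; these genes also hold close copies. The gene vit-2 had 1555 and 2021 FPKM in mannose 1 and water 3, against 1994, 2115, 2112 and 1830 in the low libraries. For vit-3 (567 and 594 FPKM against 480.04 to 553) and vit-4 (539 and 556 against 466 to 519) both high libraries lay above all low ones, by small margins beside the 7.38-fold difference of the yolk receptor gene.

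Body wall muscle had 0 of 23 counted (median -0.16), neuropeptides 0 of 95 (-0.087), and neuronal genes 0 of 12 (0.14, and -0.14 with scaling to total reads); the 4 pharynx genes lay at -0.23 to -0.066. The synaptobrevin gene snb-1 had the largest difference of the neuronal list, 0.92. Lysozyme and saposin genes (0 of 24 counted, median -0.28, 10 below all low libraries), lipid binding and transthyretin genes (0 of 53, -0.26, with 48 below 0 and 29 below all low libraries, beside 21.5% of all genes), glutathione S-transferases (0 of 28, -0.17), cytochrome P450 and UGT genes (0 of 84, -0.11), and aspartyl and cathepsin proteases (0 of 16, -0.13) leaned below 0. With scaling to total reads body wall muscle had a median of -0.49, lipid binding genes -0.57 and lysozyme genes -0.58, beside -0.26 for all genes. Several of these lists hold short genes, with a median length of 593 bases for lipid binding genes against 1353 for all. With the median of genes of like length taken off (described below), lipid binding genes had -0.072, glutathione S-transferases -0.013 and the proteases -0.062. Lysozyme genes had -0.15 on that scale, cytochrome P450 and UGT genes -0.17 and body wall muscle -0.23. Of 67 C-type lectins, 1 was counted as higher, clec-87, with 1514 and 1681 FPKM in mannose 1 and water 3, against 920, 624, 621 and 715 in mannose 2, mannose 3, water 1 and water 2. Inducible heat shock genes had 12 of 13 below 0 and a median of -0.33, with all 6 hsp-16 genes below 0, but water 2 lay with the high libraries (hsp-16.41 had 115 and 81.9 FPKM in the high libraries, against 156, 156, 160 and 105.5 in the low ones). Of 18 long intervening noncoding RNAs, 1 was counted as higher (median -0.080), and of 62 histone genes, 2 were, his-66 and his-58 (1.05 each, both with near-identical copies), with a list median of 0.0058 as deposited and -0.24 with scaling to total reads. The part of these cell types in the differences of the germline genes was not tested.

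Cuticle collagens had 98 of 107 genes above 0 and a median difference of 0.36, or 0.12 with scaling to total reads, but the 2 high libraries lay far apart. Their median deviation was -0.24 in mannose 1 and 0.73 in water 3, against -0.33, -0.13, 0.09 and 0.01 in mannose 2, mannose 3, water 1 and water 2, so the 2 high libraries were farther apart than any pair of low ones. The difference was -0.0013 within mannose and 0.66 within water, and 1 of 107, col-38, was counted as higher, with 5.87 FPKM in mannose 1 and 24.7 in water 3, against 5.24, 5.59, 4.002 and 5.59 in the low libraries. The overlapping genes col-93 and col-94 held values in different libraries: col-93 had 1188 and 1855 FPKM in the high libraries but also 1602 in water 2, and was at or near 0 in the other 3, where col-94 had 523 to 885.

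The 2 high libraries differed from each other by at least 2-fold in 210 of the 11237 genes, 63 higher in mannose 1 and 147 in water 3. Among the 1191 higher genes, water 3 was above mannose 1 in 852 (71.5%), with a median gap of 0.15. Genes outside the range of the low libraries that differed most between the high ones were D1086.18 (14.02 FPKM in mannose 1 and 1.48 in water 3), col-38, Y57G11C.9 (9.99 and 31.4), Y24D9A.11 (6.14 and 17.1), rpap-3 (10.5 and 26.1) and calf-1 (28.8 and 63.1), whose product helps calcium channels reach the synapse. Of these, D1086.18, Y57G11C.9 and rpap-3 overlap another expressed gene on their strand.

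The low libraries were not alike either. Mannose 2 was the highest of the 4 in 87.2% of the 1191 higher genes, against 9.07% for water 2, 2.43% for mannose 3 and 1.26% for water 1. The median gap from the mean of the 2 high libraries was 1.10 to mannose 2, against 1.67 to mannose 3, 1.64 to water 1 and 1.45 to water 2. For cpg-1 and lin-41 mannose 2 lay beside the other low libraries, while for cpg-2 (799 FPKM against 283 to 586) it stood between the classes.

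The 19 lower genes were few and many lay in overlapping gene models. Of these, 14 overlap another expressed gene on the same strand, beside 17.6% of all genes compared and 15.2% of the 1191 higher genes, and with overlapping genes left out 5 were counted as lower. Single libraries also set the count, which became 50 when mannose 1 was left out, 55 when water 3 was and 31 when water 2 was. The gene Y56A3A.22 (III:11921692-11923827) had 0.31 and 0.25 FPKM in mannose 1 and water 3, against 129.8, 123.7, 123.3 and 121.1 in mannose 2, mannose 3, water 1 and water 2; it lies within trap-4, for a subunit of the translocon-associated complex, which had 311 and 299.8 FPKM against 216, 214, 189 and 192. Added up by length, in FPKM times kilobases, the pair had 532 and 512 in the high libraries, against 490.1, 481, 438 and 442 in the low ones. The near-total loss in the first gene thus had no counterpart in the sum.

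A second such pair was scb-1 (V:11118664-11122784), which had 13.5 and 13.3 FPKM in mannose 1 and water 3, against 38.9, 33.8, 36.3 and 34.8, and mboa-2, for a membrane-bound acyltransferase, with 40.8 and 35.8 against 0.33, 0.30, 0.33 and 0.39. Their sum by length was 116 and 106 in the high libraries, against 118, 103, 110.3 and 106 in the low ones. The gene mboa-2 was chosen after its values were seen and fails the filter, since only the 2 high libraries reach 1 FPKM. Of 103 genes with at least 1 FPKM in both high libraries and under 1 in all 4 low ones, it alone reached 5 FPKM in both. Several of the 103 are genes of 21 bases with 1.25 and 1.23 FPKM in mannose 1 and water 3. The reverse, at least 1 FPKM in all 4 low libraries and under 1 in both high ones, held for 42 genes.

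Of the other lower genes, hrpl-1, for a relative of the RNA-binding protein hnRNP L, had 2.92 and 2.85 FPKM in mannose 1 and water 3, against 19.5, 14.3, 15.5 and 16.6, and overlaps psmd-9. The gene gnrr-1, for a relative of gonadotropin-releasing hormone receptors, had 0.038 and 0.087 FPKM against 171, 191, 0.17 and 37.01, and it overlaps 2 ribosomal protein genes. The chromatin gene hmg-4, for a subunit of the histone chaperone FACT, had 43.7 and 26.7 FPKM against 72.5, 78.0, 69.4 and 82.4, and it lies within F56C9.10, which had 46.8 and 45.7 against 9.59 to 19.6. The genes E01A2.12, K02F3.12, F32D8.12, Y51H7C.7 and rpap-3 also overlap another gene, skr-13 overlaps only a 21-base small RNA gene, and C06B3.6 overlaps none. Not every sum by length evened out. E01A2.12 with E01A2.1 had 77.8 and 88.1 in the high libraries, against 99.0, 105.7, 124.3 and 116.7. For rpap-3 with sec-10 it was 105.3 and 84.4, against 130.4, 133.5, 126.9 and 125.3. The sums of hmg-4 with F56C9.10 (356 and 312) and Y51H7C.7 with Y51H7C.41 (175 and 195) lay above all low libraries. For C06B3.6 the values were 17.02 and 9.12 FPKM in the high libraries, against 35.7, 26.6, 24.7 and 24.5.

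Gene length moved with the classes. The 1191 higher genes had a median length of 2516 bases, the 19 lower genes 937, and all genes 1353, and length and difference had a Spearman correlation of 0.38 across the 11237 genes. The share counted as higher was 2.22% in the shortest 10% of the genes and 35.2% in the longest 10%. The shortest 10% includes 211 genes of at most 30 bases with 1 read in every library, which could not be counted as higher. In that longest class the median deviation from the 6-library mean was 0.54 and 0.35 in mannose 1 and water 3, against 0.00, -0.23, -0.43 and -0.26 in mannose 2, mannose 3, water 1 and water 2.

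Long genes of 5 germline and oocyte lists were often counted as higher, and those of 8 somatic lists were not. In 5 germline and oocyte lists 12 of 25 genes of at least 3000 bases (48.0%) were counted as higher, beside 34.7% of all genes of that length. Of 37 genes of 2000 to 2999 bases 22 were (59.5%, beside 21.3%), and cpg-1, which set the classes, is among them. Of those of 1000 to 1999 bases 13 of 34 were (38.2%, beside 7.22%). The medians of the 2 longer classes were 0.93 and 1.51. In 8 somatic lists 0 of 18 and 0 of 20 genes of the 2 longer classes were counted as higher, with medians of 0.13 and 0.019. Those lists do not cover all somatic genes. Outside them, fln-1 (7131 bases) and fasn-1 (8451 bases) were counted as higher, at 1.17 and 1.51. The sheath and spermatheca gene tns-1 (4401 bases, chosen after its values were seen) had -0.017. The part of gene length in the differences was not tested. With the running median of 501 genes of like length taken off each gene, an alternative chosen after the data were seen, 869 genes were counted as higher, 819 of them among the 1191, and the oocyte list had a median of 1.65. Other list medians changed more: nuclear pore from 0.88 to 0.38, germline stem cell from 0.96 to 0.53 and germ granule from 1.31 to 0.96. Vitellogenins went from 0.097 to -0.65, while ribosomal proteins rose from 0.40 to 0.54. Of 220 lists and genes followed, 92 moved by more than the spread between libraries.

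**Figure D5:**
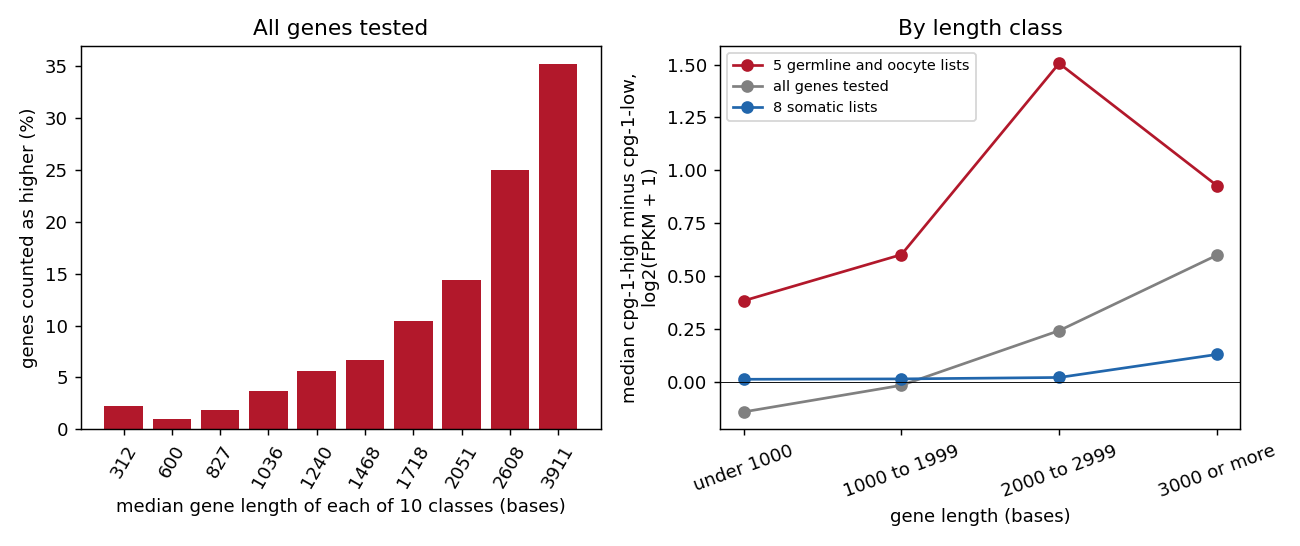
Left, share of genes counted as higher in cpg-1-high libraries in each of 10 equal classes of the 11237 genes by length, labelled by median length in bases. Right, median difference, log2(FPKM + 1), by length class for 5 germline and oocyte lists, all genes and 8 somatic lists; in the longest class they lie at 0.93, 0.60 and 0.13.

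Higher genes were unevenly spread over the chromosomes. On the X chromosome, which is silenced in much of the germline, 74 of 1455 genes (5.09%) were counted as higher, against 8.71% to 13.5% on the 5 autosomes. Among genes of at least 2000 bases, the shares were 14.3% on X and 22.7% to 31.1% on the autosomes. Genes of P granules such as meg-1 and meg-3 were among the higher genes of X.

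The deposited values carry a library scaling that differs between the classes. The ratio of the effective library size to the summed reads was 0.890 and 0.839 in mannose 1 and water 3, against 1.04, 1.13, 1.11 and 1.08 in mannose 2, mannose 3, water 1 and water 2. Scaling to total reads shifts every gene of the high libraries by -0.33 relative to the low ones, and it moved the median of all genes to -0.26, so that 778 genes were counted as higher and 56 as lower. The oocyte list kept a median of 1.35 on that scale.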

How the data were processed

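Per the labels' protocols, Trizol RNA of whole N2 worms went into libraries for which a TruSeq and a VAHTS kit are named. Per the submitters' processing notes, the tools were cutadapt, FastQC and HISAT2 2.1.0, and the genome build was WBcel235; what the counting tool and its strand setting were is not stated there. The authors deposited 1 FPKM value per gene for 47656 genes, already divided by gene length and scaled per library; 1927 genes hold no value and 23983 are at 0 in all libraries. The FPKM values deposited were whole multiples of 1 read, within 0.05 of a read, for 95.1% to 95.8% of values worth up to 20 reads, and read equivalents were recovered from that step. One read in a gene of 1000 bases was worth 0.0203 to 0.0263 FPKM, which limits the precision of low values.

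Libraries were classed by a cpg-1 level of 200 FPKM. Differences are least-squares coefficients of the class on log2(FPKM + 1) with treatment as a term, over 11237 genes with at least 1 FPKM in 3 of 6 libraries; 211 of these are genes of at most 30 bases with 1 read in every library. The pseudocount understates differences of genes with low values. No test was made, because the classes come from these values; the computation was checked on simulated data. The libraries share no identical columns. Computation used Python 3.11.15, numpy 2.4.6, pandas 2.3.3 and scipy 1.17.1. The 36 gene lists, the members and the counting rule were chosen with earlier results of these data known. Genes named are the 4 markers, the 12 largest differences in each direction among genes counted as higher or lower with a mean of at least 5 FPKM in the higher class, up to 4 members and the most abundant member of each list described, and up to 6 genes that differ most between the 2 high libraries; others are said to be chosen after their values were seen. The text says where a named gene overlaps another expressed gene. Alternatives covered the pseudocount, the filter, the treatment term, library scaling, overlapping genes, a replicate block, leaving out each library and the trend with gene length.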

Additional observations from a re-analysis of the deposited data

Results flagged for a closer look

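In 4 gene lists the median difference between cpg-1-high and cpg-1-low libraries had opposite signs in the 2 treatments, and whether the treatments differ was not tested. Meiotic chromosome genes had 0.12 within mannose and -0.10 within water. Embryo tissue specification genes had -0.13 within mannose and 0.027 within water. Gonad sheath and spermatheca genes had -0.023 within mannose and 0.039 within water. Aspartyl and cathepsin protease genes had -0.24 within mannose and 0.089 within water.

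The ribosomal protein gene rpl-17, for a subunit protein of the large ribosomal subunit, also had opposite signs, 1.60 within mannose and -10.93 within water. It had 4696 FPKM in mannose 1 and was listed at 0 in water 3, against 3357 in mannose 2, 713 in mannose 3, 1210 in water 1 and 3160 in water 2. It overlaps another expressed gene on its strand, and the difference was not tested.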

How the results depend on the processing

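Under each setting tried more genes were counted as higher than as lower in cpg-1-high libraries, and the median of the oocyte list stayed above 0. The oocyte list had a median of 1.68, and 1.35 with scaling to total reads to 1.97 with the replicate block. The 1191 higher genes became 778 with scaling to total reads, all among the 1191, and were 825 to 1448 otherwise. The 19 lower genes were the least stable: 58 with a pseudocount of 0.1, 10 with a pseudocount of 5, 40 with upper-quartile scaling, 56 with scaling to total reads, and 5 with overlapping gene models left out. Leaving out 1 library gave 1049 to 1385 higher genes, 21 to 55 lower genes and an oocyte median of 1.49 to 1.91; mannose 1, water 2 and water 3 moved the lower count most, to 50, 31 and 55. Without mannose 1 or water 3 a single high library is left. The cause of these shifts was not tested. Whether replicate numbers pair the libraries is not known. Same-numbered libraries deviated from their group means with correlations of -0.74, 0.24 and -0.71, and mannose 1 with water 3 had 0.77. The high libraries carry different numbers in the 2 treatments, so the classes enter these values and they cannot settle the pairing. A replicate block gave 1448 higher genes, 1180 of them among the 1191, 22 lower genes and an oocyte median of 1.97. For single lists and genes, 502 of 3476 values under alternatives moved by more than the spread between libraries, and 0 of the named genes counted as higher or lower changed sign. The list medians of cell cycle, translation factor, vitellogenin, intestine, neuron, histone and gonad sheath genes were 0.0058 to 0.33 as deposited and -0.28 to -0.0048 with scaling to total reads. Depth limits values near 1 read, and 2 libraries limit the precision of the cpg-1-high class.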
